A study of Homo sapiens with 8 samples.

Results

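The caspases are cysteine proteases of cell death, and 7 of them were followed here together with gasdermin D, the pore-forming protein that inflammatory caspases cleave. The 8 genes were CASP1 and CASP4 of the inflammatory branch, the pore protein gene GSDMD, the apoptotic initiators CASP2, CASP8, CASP9 and CASP10, and the executioner CASP6. They were found by matching the Ensembl identifiers of the count table to gene symbols and made up 8 of 60664 rows. All 8 had counts in every library and all 8 passed the filter on low counts, CASP1 only through the groups that received IFN-γ.

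The RNA came from A549 cells, an established human lung adenocarcinoma line, sequenced in 8 libraries as 4 groups of 2. The groups were untreated cells, cells given IFN-γ at 20 ng/mL (20 ng in the labels, with no volume), cells given 0.5 µM AX-0085, and cells given IFN-γ followed by AX-0085. IFN-γ is a cytokine that signals through JAK kinases, and AX-0085 is a small molecule chosen as an inhibitor of IFN-γ-induced PD-L1 expression. IFN-γ was given 24 hours before AX-0085, and cells were collected after another 24 hours. The 2 libraries of a group are described as duplicate samples, with no word on separate cultures, so p-values measure only the spread between these libraries. The data describe 1 cell line at 1 dose and 1 time.

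Caspases are made as inactive precursors and are switched on by cleavage or by assembly into large complexes, so that the RNA level sets the supply of precursor and not the activity. In the inflammatory branch, caspase-1 is activated in inflammasomes and caspase-4 by bacterial lipopolysaccharide, and both cleave gasdermin D to open membrane pores, a death called pyroptosis. In the apoptotic branch, initiator caspases respond to death receptors or to mitochondrial damage and then cleave executioner caspases. RNA was measured in bulk, so fewer cells of a type and less RNA per cell cannot be told apart.

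The inflammatory caspases form a cluster on the minus strand of chromosome 11. In GENCODE 44 on GRCh38, CASP4 lies at chr11:104942866-104969366 and CASP1 at chr11:105025397-105035250. CASP5 lies between them, 24868 bases from CASP4 and 2228 bases from CASP1. CARD16, whose protein resembles the recruitment domain of caspase-1, lies 6075 bases beyond CASP1. On the plus strand of chromosome 2 the genes of the caspases that act at death receptors are also neighbours, with CASP10 at chr2:201182872-201229428 and CASP8 at chr2:201233443-201361836, 4014 bases apart. CFLAR, the gene of the caspase-8 regulator cFLIP, ends 6184 bases before CASP10. CASP9 lies at chr1:15490832-15526534 on the minus strand, CASP6 at chr4:109688622-109703583 on the minus strand, and CASP2 at chr7:143288215-143307696 on the plus strand.

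The promoters are shown to set CASP4 and CASP8, which rose with IFN-γ, beside CASP2, CASP6 and CASP9, which fell, as a description with no test. RefSeq windows (GRCh38.p14) of the 250 bases before a start were taken for 5 of the 8 genes, 9 windows in all. GSDMD was left out of this description by choice, and CASP1 and CASP10 had no window. The lines give the part of a window before it meets a GENCODE exon, 5′ to 3′ on the strand of the gene, with CG dinucleotides in capitals. RefSeq starts were used, and GENCODE also lists transcripts of CASP4 and CASP9 that start farther upstream, so these 2 stretches lie inside the gene spans given above. CASP4 is read from chr11:104968729-104968824 (minus strand), CASP8 from chr2:201233213-201233442 (plus), CASP2 from chr7:143288101-143288214 (plus), CASP6 from chr4:109703584-109703695 (minus) and CASP9 from chr1:15524890-15525040 (minus).
CASP4: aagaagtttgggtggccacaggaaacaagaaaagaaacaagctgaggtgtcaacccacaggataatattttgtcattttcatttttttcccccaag
CASP8: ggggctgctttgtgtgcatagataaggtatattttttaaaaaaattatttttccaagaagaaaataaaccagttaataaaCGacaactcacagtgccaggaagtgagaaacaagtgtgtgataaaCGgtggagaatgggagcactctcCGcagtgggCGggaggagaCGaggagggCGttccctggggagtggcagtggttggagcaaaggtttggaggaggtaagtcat
CASP2: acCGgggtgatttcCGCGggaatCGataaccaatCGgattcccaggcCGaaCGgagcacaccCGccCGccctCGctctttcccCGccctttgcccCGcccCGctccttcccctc
CASP6: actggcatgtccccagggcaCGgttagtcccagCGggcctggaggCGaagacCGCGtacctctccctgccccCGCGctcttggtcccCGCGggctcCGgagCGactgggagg
CASP9: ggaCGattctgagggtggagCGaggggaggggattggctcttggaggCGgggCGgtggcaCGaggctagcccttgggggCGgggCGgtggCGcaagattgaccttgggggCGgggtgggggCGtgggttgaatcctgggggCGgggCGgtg

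The whole CASP4 window held 38.0% G and C with 2 CG dinucleotides. That was below the median window of the 35116 in the table, at 58.0% and 11 CG dinucleotides, and 90.5% of windows had at least as much G and C. The 3 CASP8 windows held 45.6%, 42.8% and 55.6%, with 6, 5 and 5 CG dinucleotides. By contrast, the windows shown in part for CASP2, CASP6 and CASP9 held 71.2%, 74.0% and 71.6%, with 29, 26 and 25 CG dinucleotides. A second CASP2 window, with only 2 CG dinucleotides, did not share this. The palindromic letters TTCNNNGAA, a pattern known from promoters that respond to IFN-γ, occurred in 6.57% of all windows and, among the 9, only in the first CASP8 window, as ttccaagaa beginning 200 bases before the start. GAAANNGAAA, searched on both strands and able to overlap the first motif, occurred in 3.02% of all windows and in none of the 9. These matches describe letters only.

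Total counts were 20672828 to 29978251 per library, and levels are given as CPM, counts scaled to the TMM-adjusted library total. On this scale 3 counts correspond to 0.0959 to 0.158 CPM. Libraries of a group differed beyond counting noise but correlated at 0.992 to 0.995 in log2 CPM. All 6 epithelial markers had counts in every library, with summed levels of 8821.1 and 9550.5 CPM in untreated, 7398.0 and 6511.8 in IFN-γ, 6089.5 and 5758.7 in AX-0085, and 7304.2 and 7220.6 CPM in the combined treatment. With IFN-γ, 5 of these 6 were called lower, EPCAM by the most (log2 fold change -3.18). Of 8 immune cell markers 1 to 3 had counts in any library, summing to 1.18 to 2.48 CPM, and CD3E and MS4A1 were at 0 throughout. The 7 fibroblast and endothelial markers summed to 4.65 and 3.10 CPM with IFN-γ and to 7.13 to 11.3 CPM in the other groups, with COL1A2 at 0 throughout. Mitochondrial transcripts made up 1.71% and 1.82% of counts with IFN-γ and 2.72% to 5.73% in the other groups. The markers and the mitochondrial share thus differed between the treatment groups, with AX-0085 lowest in summed epithelial markers and highest in mitochondrial share, and their part in the results below was not tested.

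Across the genes followed, IFN-γ raised the inflammatory caspases and CASP8 and lowered the other apoptotic caspases, while GSDMD did not pass the test. A gene passed the test at a Benjamini-Hochberg-adjusted p under 0.05 in edgeR's quasi-likelihood test over 15066 genes, and was called when its log2 fold change also exceeded 1 in size. Against untreated cells, 7 of the 8 genes passed, where 68.1% of all tested genes did. The call was reached by 4 of the 8, with CASP1 and CASP4 higher and CASP2 and CASP6 lower, where 27.5% of all genes were called. CASP1 was tested only through its level in the groups given IFN-γ. Its call, here and in the comparisons below, is therefore not support for a change of the 8 genes as a set. The median change of all genes was -0.06 on the log2 scale.

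**Figure D1:**
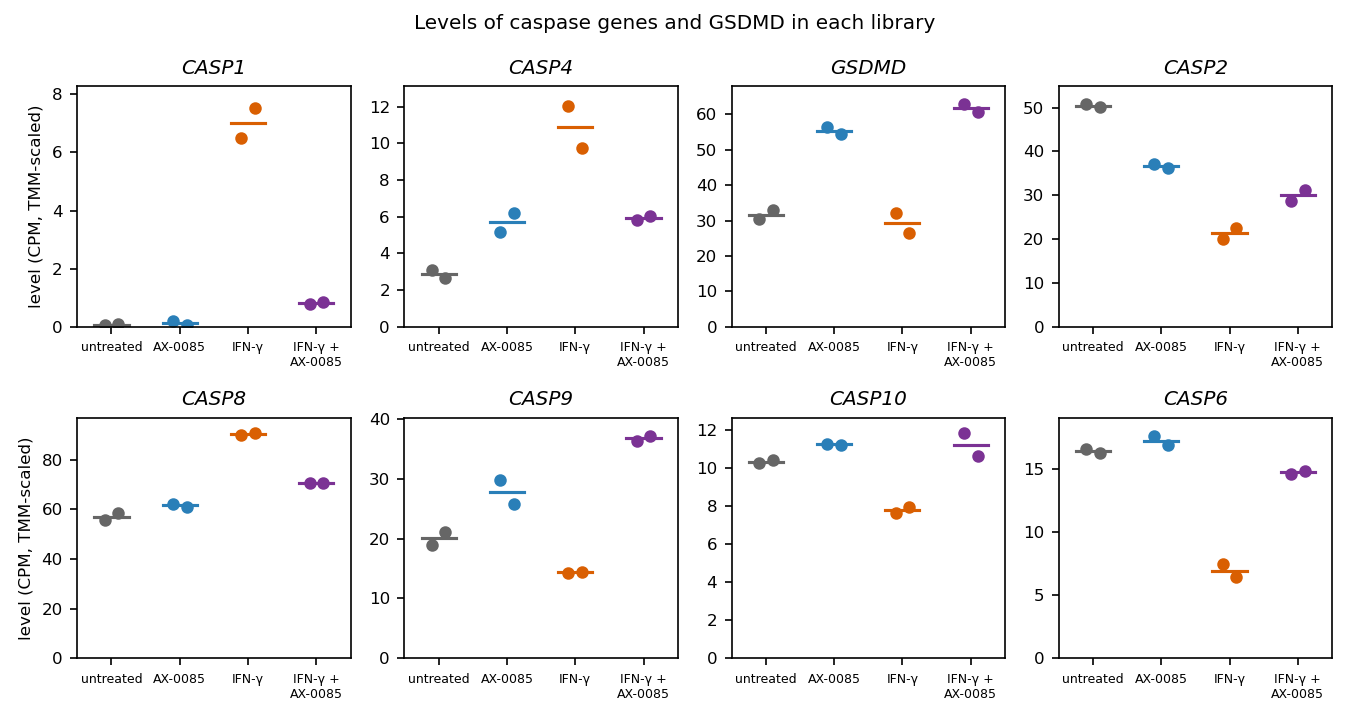
Level of each of the 8 genes (CPM, linear axes that differ between panels) in the 8 libraries, with points for libraries and a bar for the mean of the 2 libraries of a group. CASP1 reached 6.50 and 7.52 CPM with IFN-γ and at most 0.854 CPM in any other group, whereas CASP2 and CASP6 were lowest with IFN-γ.

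CASP1, the inflammasome protease that matures interleukin-1β and interleukin-18, was close to absent without IFN-γ. It had 2 and 2 counts in the untreated libraries, 5 and 2 under AX-0085, 123 and 187 under IFN-γ, and 25 and 19 under both. In CPM these were 0.0662 and 0.0815, 0.199 and 0.0753, 6.50 and 7.52, and 0.799 and 0.854. Both IFN-γ libraries lay far above all others, the combined libraries lay between, and the untreated and AX-0085 libraries overlapped. The IFN-γ libraries held 96.9 times the untreated level (95% counting interval 37.5 to 358), which corresponds to a fitted log2 fold change of 6.50 ± 0.34 (SE, edgeR adjusted p = 1.749e-09). After AX-0085 was added to IFN-γ, CASP1 fell by 3.09 ± 0.22 on the log2 scale (edgeR adjusted p = 4.343e-08). It remained at 11.3 times the untreated level (95% counting interval 4.10 to 43.1), a rise of 3.41 ± 0.52 on the log2 scale (edgeR adjusted p = 7.694e-05). AX-0085 alone gave a difference of 0.85 on the log2 scale with an interval of -0.89 to 2.59, so that no change was detectable at this depth.

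CASP4, which binds cytosolic lipopolysaccharide, was measurable in every group and rose with each treatment. It had 3.08 and 2.65 CPM in untreated libraries, 5.18 and 6.21 under AX-0085, 12.0 and 9.77 under IFN-γ, and 5.82 and 6.02 under both. The untreated libraries were lowest and the IFN-γ libraries highest, while the AX-0085 and combined libraries overlapped. IFN-γ raised CASP4 by 1.91 ± 0.16 on the log2 scale, or 3.76-fold (edgeR adjusted p = 1.553e-07). AX-0085 alone also raised it, by 0.99 ± 0.17 (edgeR adjusted p = 0.000249), just short of a call. Adding AX-0085 to IFN-γ lowered it by 0.87 on the log2 scale (log2 fold change -0.87 ± 0.14, edgeR adjusted p = 0.0001102). With both agents it was 1.04 ± 0.16 above untreated cells on the log2 scale (edgeR adjusted p = 0.0001334).

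The effect of IFN-γ in the presence of AX-0085 was measured as well. Compared with AX-0085 alone, the combined libraries were higher for CASP1 by 2.56 ± 0.46 (edgeR adjusted p = 0.0008468), while for CASP4 the difference was 0.05 with an interval of -0.27 to 0.38. The other inflammatory caspase genes could not add to the comparison. CASP5 had at most 3 counts in a library and did not pass the filter, and CASP12 had 0 counts in all 8 libraries. CARD16 had 0 and 0 counts in untreated cells, 1 and 0 under AX-0085, 36 and 38 under IFN-γ, and 1 and 4 under both. Its level with IFN-γ was at least 15.4-fold higher than untreated, taking 3 counts per library as the floor. Reads of CARD16 and CASP1 could be split wrongly by the counting because the genes are near-copies in part, which leaves the value of each uncertain.

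GSDMD, which codes for the pore-forming substrate of both inflammatory caspases, rose with AX-0085, while its difference with IFN-γ did not pass the test. It had 30.4 and 33.0 CPM in untreated libraries, 32.3 and 26.4 under IFN-γ, 56.5 and 54.3 under AX-0085, and 62.9 and 60.6 under both. Untreated and IFN-γ libraries overlapped, and every library with AX-0085 lay above every library without it. IFN-γ gave a log2 difference of -0.12 ± 0.10 (interval -0.32 to 0.09, edgeR adjusted p = 0.2993). AX-0085 raised GSDMD by 0.81 ± 0.09 in otherwise untreated cells (edgeR adjusted p = 8.337e-06) and by 1.08 ± 0.09 in cells given IFN-γ (edgeR adjusted p = 3.189e-07). These comparisons share no library, and their difference of 0.27 (interval -0.01 to 0.56) did not pass the test (edgeR adjusted p = 0.09736). Both the IFN-γ difference and this one passed without IFN-γ replicate 1, at -0.25 and 0.41 (edgeR adjusted p = 0.0267 and 0.008022), and with scaling by library size alone, at -0.23 and 0.39 (edgeR adjusted p = 0.03813 and 0.01978). Its highest libraries were those of the combined treatment, in which CASP1 stood at 0.799 and 0.854 CPM.

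Among the initiators, CASP8 rose with IFN-γ, and it was the only one of the 5 apoptotic genes followed that did. Caspase-8 is activated at death receptors and also holds back a necrotic form of death. It had 55.7 and 58.3 CPM in untreated libraries, 62.1 and 61.0 under AX-0085, 89.8 and 90.6 under IFN-γ, and 70.6 and 70.6 under both. The 4 groups did not overlap. IFN-γ raised it by 0.66 ± 0.06 on the log2 scale, or 1.58-fold (edgeR adjusted p = 5.199e-07), below the 2-fold threshold of a call. Adding AX-0085 gave a log2 change of -0.35 ± 0.06 (edgeR adjusted p = 0.0001893), which left CASP8 0.31 above untreated (edgeR adjusted p = 0.0007716). Another gene shares 4.74% of its exon bases on the same strand.

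CASP10, the close relative and genomic neighbour of CASP8, moved the other way. It had 10.3 and 10.4 CPM in untreated libraries, 11.3 and 11.2 under AX-0085, 7.61 and 7.92 under IFN-γ, and 11.8 and 10.6 under both. The IFN-γ libraries were the lowest, and AX-0085 and combined libraries overlapped. With IFN-γ it changed by -0.41 ± 0.11 on the log2 scale (edgeR adjusted p = 0.004101, DESeq2 -0.36 with adjusted p = 0.0705), and on top of IFN-γ the compound raised it by 0.53 ± 0.11 (edgeR adjusted p = 0.0006042). The combined libraries and the untreated ones differed by 0.13 (interval -0.09 to 0.34, edgeR adjusted p = 0.2967). Within each library, CASP8 had 5.43 and 5.62 times the counts of CASP10 in untreated cells, 5.51 and 5.44 times under AX-0085, and 5.97 and 6.66 times under both. With IFN-γ the ratios were 11.8 and 11.4, so the divergence of the neighbours was seen inside single libraries and did not depend on scaling between them.

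CASP9, the initiator that the apoptosome activates after cytochrome c release, had its highest level in the combined treatment. It had 19.0 and 21.1 CPM in untreated libraries, 29.8 and 25.7 under AX-0085, 14.3 and 14.5 under IFN-γ, and 36.3 and 37.2 under both. No groups overlapped. IFN-γ changed it by -0.48 ± 0.10 (edgeR adjusted p = 0.0006609) and AX-0085 alone raised it by 0.47 ± 0.09 (edgeR adjusted p = 0.0006121). In cells given IFN-γ, AX-0085 raised CASP9 by 1.35 ± 0.09, or 2.55-fold (edgeR adjusted p = 3.631e-08), past the untreated level by 0.88 (edgeR adjusted p = 2.181e-06). The IFN-γ effect was thus negative without AX-0085 and positive with it, at 0.40 (edgeR adjusted p = 0.002863). Its partner APAF1, the scaffold of the apoptosome, had 19.9 and 23.4 CPM in untreated libraries and 10.8 and 13.1 under IFN-γ, a log2 change of -0.84 (edgeR adjusted p = 1.471e-05).

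CASP2, an initiator linked to DNA damage and mitotic stress, was lowered by either agent. It had 50.8 and 50.1 CPM in untreated libraries, 37.2 and 36.1 under AX-0085, 20.1 and 22.6 under IFN-γ, and 28.8 and 31.2 under both. The groups did not overlap, and the order ran from untreated through AX-0085 and the combined treatment down to IFN-γ. IFN-γ changed CASP2 by -1.24 ± 0.08 on the log2 scale (edgeR adjusted p = 2.439e-08), a 2.36-fold fall, and AX-0085 by -0.46 ± 0.08 (edgeR adjusted p = 0.0002955). AX-0085 added to IFN-γ raised it by 0.48 ± 0.09 (edgeR adjusted p = 0.0002329). The combined libraries were still 0.75 below untreated (log2 fold change -0.75, edgeR adjusted p = 3.825e-06).

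CASP6, the executioner that cleaves nuclear lamins, fell with IFN-γ and rose again when AX-0085 was added. It had 16.6 and 16.3 CPM in untreated libraries, 17.7 and 16.9 under AX-0085, 7.50 and 6.43 under IFN-γ, and 14.6 and 14.9 under both. The IFN-γ libraries were the lowest, at no more than 7.50 CPM, and every other library had at least 14.6 CPM. Its log2 change with IFN-γ was -1.25 ± 0.10 (edgeR adjusted p = 1.59e-07) and with AX-0085 added 1.09 ± 0.10 (edgeR adjusted p = 7.998e-07). AX-0085 alone gave 0.07 (interval -0.12 to 0.26), and the combined libraries differed from untreated by -0.16 (interval -0.35 to 0.04, edgeR adjusted p = 0.1549). Exons of MCUB on the opposite strand cover 5.04% of CASP6 exon bases. CASP14, a caspase of skin differentiation, had 0 counts in all 8 libraries.

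The contrast of CASP4 with CASP6 and CASP9, which both fell with IFN-γ, can be read within libraries. CASP8, which rose with IFN-γ as CASP4 did, is not part of these ratios. CASP4 had 0.185 and 0.163 counts for each count of CASP6 in untreated cells and 0.294 and 0.367 with AX-0085. The ratios were 1.61 and 1.52 with IFN-γ and 0.397 and 0.405 under both. Counts of CASP4 per count of CASP9 were 0.162 and 0.126 in untreated cells, 0.174 and 0.242 under AX-0085, 0.844 and 0.675 under IFN-γ, and 0.160 and 0.162 under both. The combined libraries lay beside the untreated ones in this ratio but not in the ratio to CASP6. The inflammatory genes CASP1 and CASP4 together summed to 3.14 and 2.73 CPM in untreated cells, 5.38 and 6.29 under AX-0085, 18.5 and 17.3 under IFN-γ, and 6.62 and 6.88 under both. The 5 apoptotic genes together ranged only from 139.2 to 164.4 CPM over all libraries, and with IFN-γ the rise of CASP8 stood beside the fall of the other 4. CASP8 took 36.6% and 37.4% of that sum in untreated cells, 64.5% and 63.8% under IFN-γ, and 43.6% and 42.9% under both. These sums and shares are not adjusted for gene length, so they compare groups and do not rank the genes.

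**Figure D2:**
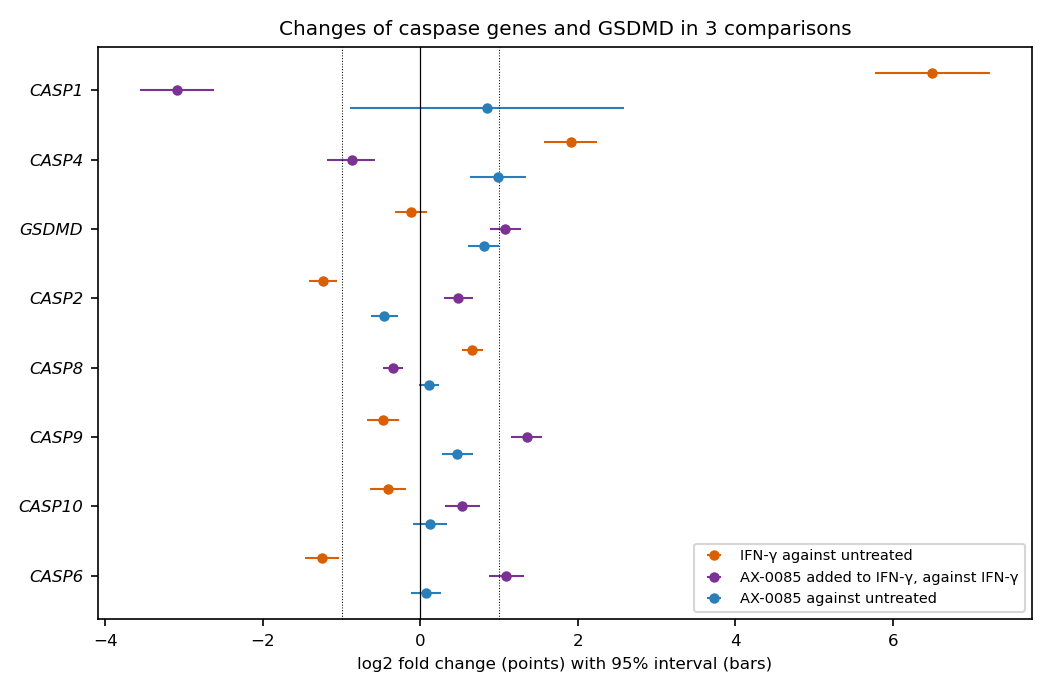
Log2 fold change of GSDMD and the 7 caspase genes with IFN-γ against untreated, in cells given both against cells given IFN-γ, and with AX-0085 against untreated, as fitted values with 95% intervals and dotted lines at the fold threshold. The comparisons share libraries. CASP1 was at 6.50, -3.09 and 0.85, and CASP9 at -0.48, 1.35 and 0.47.

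Adding AX-0085 to IFN-γ moved all 8 genes past the test, where 66.5% of all genes passed, and 4 of the 8 were called, where 24.8% of all genes were. The 3 called higher were CASP9, CASP6 and GSDMD and the 1 called lower was CASP1. Without IFN-γ replicate 2, GSDMD and CASP6 fell short of the call at 0.93 and 0.97 and CASP4 reached it at -1.03, all with the test still passed. This comparison and the IFN-γ comparison share the IFN-γ libraries, so opposite signs in them are not independent. AX-0085 alone moved 4 of the 8 past the test, CASP4, GSDMD and CASP9 up and CASP2 down, where 53.3% of all genes passed. None of the 8 was called by edgeR or by DESeq2, where edgeR called 12.0% of all genes (6.41% higher and 5.62% lower), and 4 of the 8 had an unadjusted p under 0.05. CASP4 reached the call without untreated replicate 1 (1.12) or without AX-0085 replicate 1 (1.11).

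In the combined treatment against untreated cells, 6 of the 8 passed, where 56.9% of all genes did. CASP1 and CASP4 were the 2 called, both higher, where 14.7% of all genes were called. CASP10 and CASP6 were the genes that did not pass. Without untreated replicate 2, CASP4 was at 0.94 and GSDMD was called at 1.02, and GSDMD was also called at 1.01 without IFN-γ replicate 2.

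The effect of IFN-γ was then compared between cells lacking and cells given AX-0085, which share no library. In cells given AX-0085 after IFN-γ, against AX-0085 alone, 4 of the 8 genes passed and CASP1 alone was called (34.7% and 3.52% of all genes). The 4 that passed were CASP1, CASP9 and CASP8, all higher, and CASP2, lower. Of these, CASP2 and CASP8 no longer passed when AX-0085 replicate 1, AX-0085 replicate 2 or the combined replicate 1 was left out, and CASP8 also when the combined replicate 2 was. The difference between the effects passed the test for 7 of the 8 genes (50.3% of all genes) and was called for 3, CASP1, CASP4 and CASP6 (18.6% of all genes). GSDMD did not pass, with the exceptions given above. For CASP10 the difference of 0.41 (edgeR adjusted p = 0.0317) no longer passed when any of 7 of the 8 libraries was left out, nor by DESeq2 (0.37, adjusted p = 0.2164). The difference was -3.94 ± 0.86 for CASP1 (edgeR adjusted p = 0.001852) and -1.86 ± 0.22 for CASP4 (edgeR adjusted p = 1.384e-05). Without AX-0085 replicate 1, the difference for CASP1 was -3.13 and did not pass (edgeR adjusted p = 0.0733). For CASP6 it was 1.02 ± 0.14 (edgeR adjusted p = 4.474e-05), and 0.89 to 0.99 without untreated replicate 1, AX-0085 replicate 2 or IFN-γ replicate 2, short of the call. It was 0.94 ± 0.12 for CASP2 (edgeR adjusted p = 2.152e-05), and 0.88 ± 0.13 for CASP9 (edgeR adjusted p = 9.25e-05).

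**Figure D3:**
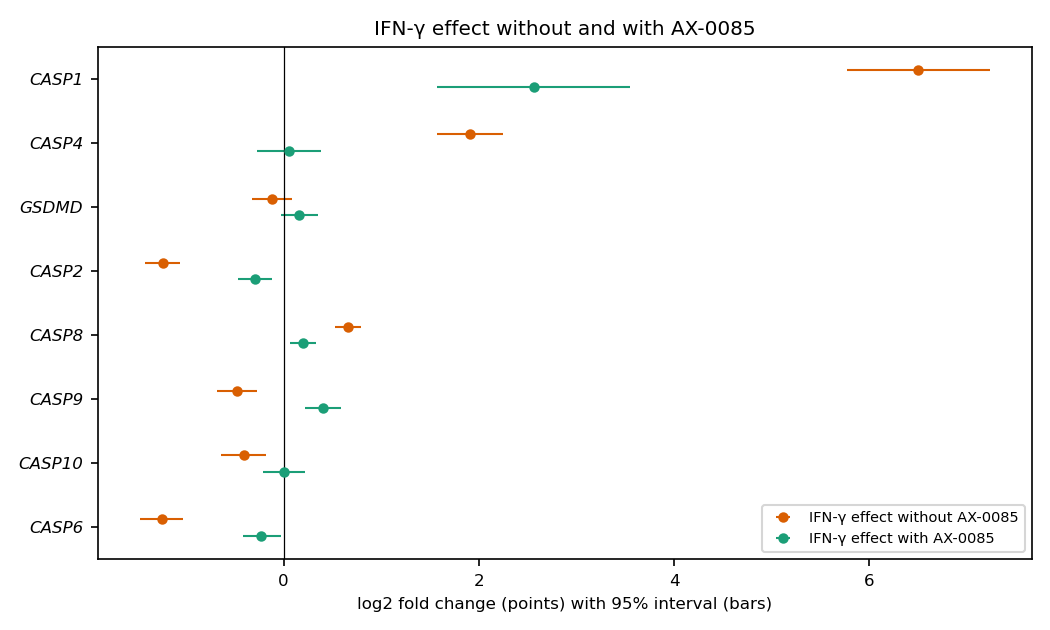
Log2 fold change with IFN-γ in cells without AX-0085 (IFN-γ against untreated) and with AX-0085 (both against AX-0085), as fitted values with 95% intervals, for the 8 genes. CASP4 moved from 1.91 to 0.05, and CASP9 from -0.48 to 0.40.

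Levels of different genes can be compared only per length, here as CPM per kilobase of exon. In untreated cells CASP6 was highest at 8.38 to 8.55, followed by CASP8 at 7.70 to 8.06, then CASP2 and GSDMD, whose libraries overlapped. CASP9, CASP10 and CASP4 followed without overlap, and CASP1 was last at 0.0167 to 0.0205. With IFN-γ, CASP8 came first at 12.4 to 12.5 and GSDMD was next at 5.19 to 6.35. CASP6 followed at 3.31 to 3.86, CASP9 and CASP2 overlapped, CASP1 at 1.64 to 1.90 overlapped with CASP4 at 1.47 to 1.81, and CASP10 was last at 0.853 to 0.888. In the AX-0085 and combined groups GSDMD was first, at 10.7 to 11.1 and at 11.9 to 12.4. CASP1 was last in both, at 0.0190 to 0.0502 and at 0.202 to 0.215. No neighbours in the order overlapped in these 2 groups.

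**Figure D4:**
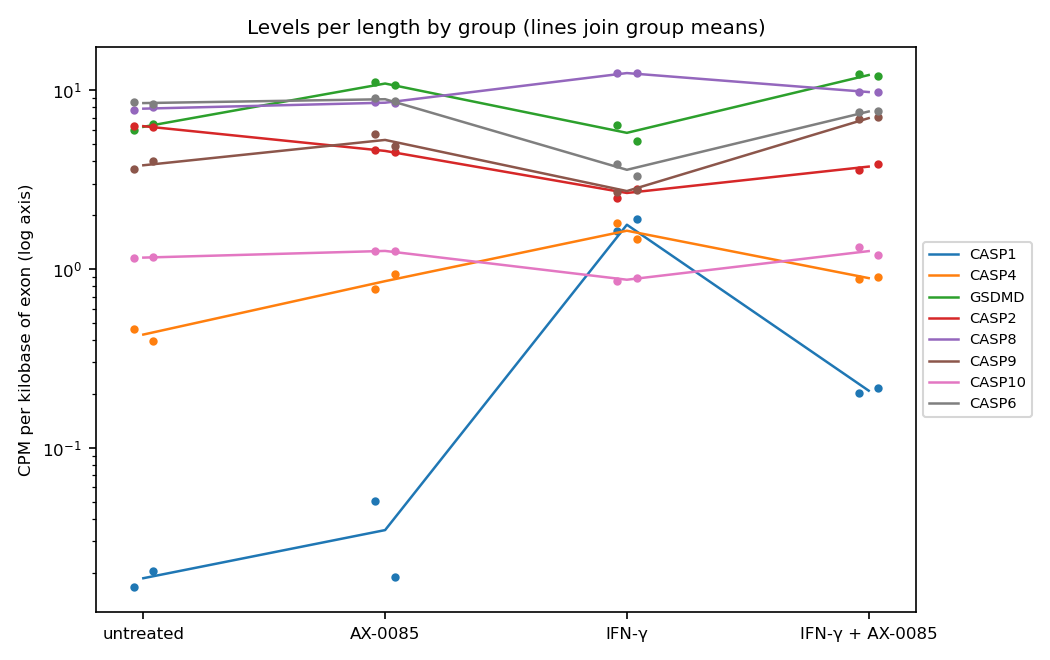
Level per length (CPM per kilobase of exon, log axis) of the 8 genes in each group, with 1 point per library and lines joining the group means. In the IFN-γ group CASP1 at 1.64 to 1.90 stood beside CASP4 and above CASP10, whereas it was the lowest gene in the other 3 groups.

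The genes most like a caspase gene were ranked by Pearson correlation of log2 CPM over the 8 libraries among 10161 genes. The libraries fall into 4 treatment groups, so these values mostly describe the order of group means. For CASP1 they were FAF2 (0.997), PRDM11 (0.996) and ADAM17 (0.996), and for CASP8 they were TUBE1 (0.998), INTS6 (0.998) and YARS1 (0.997). For CASP4 they were TXNL1 (0.992), C18orf21 (0.992) and TMEM178B (0.991). For GSDMD they were SEZ6L2 (0.993), GLB1 (0.993) and KAT14 (0.992). Between the genes themselves, CASP1 and CASP8 correlated at 0.99 and CASP1 and GSDMD at -0.32.

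The partners of these caspases were followed in 4 lists. Of 25 inflammasome and pyroptosis genes 14 were tested, 8 lay below the filter, 2 had 0 counts everywhere and CARD17 was not matched. With IFN-γ, 3 of the 14 were called higher and 0 lower, where 10.3% and 17.2% of all genes were. Of the 14, 7 passed higher and 4 lower (32.1% and 36.0% of all genes), DESeq2 also called 3 higher and 0 lower, and 4 were lower at an unadjusted edgeR p under 0.05. The median of the 14 was 0.14, also with CARD16 placed at its bound, and -0.12 without CARD16. The 3 were CARD16, the inflammasome sensor NLRP1 and the cytokine IL1A. CARD16 and NLRP1 passed the filter on low counts only through the IFN-γ group, where they are high, so the count of 3 is not support for a change of the list. NLRP1 had 5 and 4 counts in untreated cells, 34 and 55 under IFN-γ, and 2 and 2 with both, a log2 rise of 3.58 with IFN-γ (edgeR adjusted p = 1.825e-06). IL1A had 7 and 0 counts in untreated cells, 13 and 8 under IFN-γ, and 1 and 0 with both, and its adjusted p with IFN-γ was 0.0452 by edgeR. Of the cytokine substrates of caspase-1, IL18 had 0 counts in all libraries and was not measured, and IL1B had at most 5 counts in a library and lay below the filter.

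Adding AX-0085 to IFN-γ lowered these 3 genes and raised another 3 of the 14 past the call, where 8.28% of all genes were called lower and 16.5% higher. CARD16 and NLRP1 were tested only through their level in the IFN-γ group, so the 3 called lower are not support for a change of the list. DESeq2 called 2 higher and 3 lower. In all, 6 of the 14 passed higher and 7 lower (33.7% and 32.8% of all genes). The genes called higher were PYCARD, the adaptor ASC that links sensors to caspase-1, GSDMD, and the sensor NAIP. PYCARD had 5.63 and 7.49 CPM in untreated libraries, 3.91 and 3.66 under IFN-γ, and 10.2 and 8.36 with both, so that it was lowest where CASP1 was highest. Its log2 changes were -0.79 with IFN-γ (edgeR adjusted p = 0.001373) and 1.31 with AX-0085 added (edgeR adjusted p = 1.482e-05). Exons of PYCARD-AS1 on the opposite strand cover 59.7% of PYCARD exon bases. The strand setting of the counting is not given, which leaves the PYCARD values uncertain. NAIP changed by 1.04 (edgeR adjusted p = 0.0003386). CARD16 had 18.1 times the level with IFN-γ that it had with both (95% counting interval 7.41 to 57.3), and NLRP1 had 27.2 times (10.2 to 101.9). The IL1A ratio was 25.7 with an interval of 4.13 to 1060.9. The median of the 14 was 0.02 in this comparison.

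Of 14 extrinsic apoptosis genes 13 were tested. With IFN-γ 4 were called higher and 1 lower (10.3% and 17.2% of all genes), 5 passed higher and 3 lower (32.1% and 36.0%), and the median was 0.24. The death receptors TNFRSF10B, FAS and TNFRSF10A rose by 1.69, 1.64 and 1.13 on the log2 scale, and TNFRSF1A, the TNF receptor, changed by -1.07 (edgeR adjusted p at most 8.815e-08 for these 4). CFLAR, whose product competes with caspase-8 at these receptors, rose by 1.08 (edgeR adjusted p = 3.901e-09), from 68.3 and 68.4 CPM to 149.5 and 140.4 CPM. As raw counts, not adjusted for gene length, CFLAR had 1.23 and 1.17 times those of CASP8 in untreated cells, 1.67 and 1.55 times under IFN-γ, 0.767 and 0.800 times under AX-0085, and 0.769 and 0.786 times under both. Between groups, the ratio was highest with IFN-γ and lower in every library with AX-0085 than in any without it. With the compound added to IFN-γ, 5 of the 13 were called lower and 0 higher (8.28% and 16.5% of all genes), with a median of -0.04. TNFRSF10A changed by -1.51, CFLAR by -1.40 and TNFRSF10B by -1.36 (edgeR adjusted p at most 2.093e-09). Of the 13, 3 passed higher and 6 lower (33.7% and 32.8% of all genes), 4 were higher at an unadjusted edgeR p under 0.05, and DESeq2 called 0 higher and 5 lower.

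Of 21 intrinsic apoptosis genes 17 were tested, 1 lay below the filter and 3 had 0 counts everywhere. These 3, BAK1, BCL2L11 and DIABLO, were therefore not measured. With IFN-γ, 6 of the 17 were called higher and 0 lower by edgeR and by DESeq2, beside 10.3% and 17.2% of all genes by edgeR. Of the 17, 9 passed higher and 3 lower (32.1% and 36.0% of all genes), with 3 lower at an unadjusted p under 0.05, and the median was 0.24. The largest rises were in BH3-only genes, whose products set off the mitochondrial pathway upstream of caspase-9. HRK rose by 3.10 (edgeR adjusted p = 1.112e-08), PMAIP1 by 3.06 (edgeR adjusted p = 1.989e-10) and BBC3 by 1.70 (edgeR adjusted p = 7.609e-08). Anti-apoptotic genes were also among the 6. AX-0085 added to IFN-γ left 6 of the 17 called lower and 1 higher (8.28% and 16.5% of all genes), with 10 passing lower and 3 higher (32.8% and 33.7%) and a median of -0.31. The anti-apoptotic BCL2A1 and BCL2L1 changed by -3.87 (edgeR adjusted p = 2.411e-10) and -1.80 (edgeR adjusted p = 9.234e-11), and PMAIP1 by -2.12 (edgeR adjusted p = 4.58e-09). BMF, a BH3-only gene, rose by 2.24 (edgeR adjusted p = 2.645e-07). In the combined group, where CASP9 was highest, BCL2L1 was at 73.9 and 74.5 CPM, against 275.4 and 243.3 CPM with IFN-γ. BCL2L1 was similarly low with AX-0085 alone, at 79.71 and 79.45 CPM, and had 178.9 and 186.0 CPM in untreated libraries. Exons of ABALON on the opposite strand cover 41.3% of BCL2L1 exon bases. With the strand setting not given, the BCL2L1 values are uncertain, as those of PYCARD are.

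All 8 caspase inhibitor genes were tested, and with IFN-γ edgeR called BIRC7 alone, lower, while DESeq2 called 1 higher and 1 lower. BIRC7 had a log2 change of -2.82 (edgeR adjusted p = 9.769e-05), and the list median was 0.04. The counts of BIRC7 were 39 and 33 in untreated libraries, 1 and 7 under IFN-γ, and 45 and 25 under both. Its changes therefore rest on few counts in the IFN-γ libraries. Of the 8, 4 passed higher and 4 lower, beside 32.1% and 36.0% of all genes. With AX-0085 added, edgeR called 2 of the 8 higher and 1 lower (16.5% and 8.28% of all genes) and DESeq2 1 higher and 1 lower. By edgeR 2 passed higher and 4 lower (33.7% and 32.8% of all genes), and the median was -0.18. BIRC7 rose by 2.80 (edgeR adjusted p = 0.0001183) and BIRC3 changed by -2.02 (edgeR adjusted p = 2.143e-09), and the other gene called was NAIP, which is also in the inflammasome list. XIAP, a direct inhibitor of active caspases, had 56.3 and 46.8 CPM in untreated libraries and 70.6 and 82.9 under IFN-γ, a log2 rise of 0.57 (edgeR adjusted p = 0.0001399). With AX-0085 added it changed by -0.28 (edgeR adjusted p = 0.01993).

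**Figure D5:**
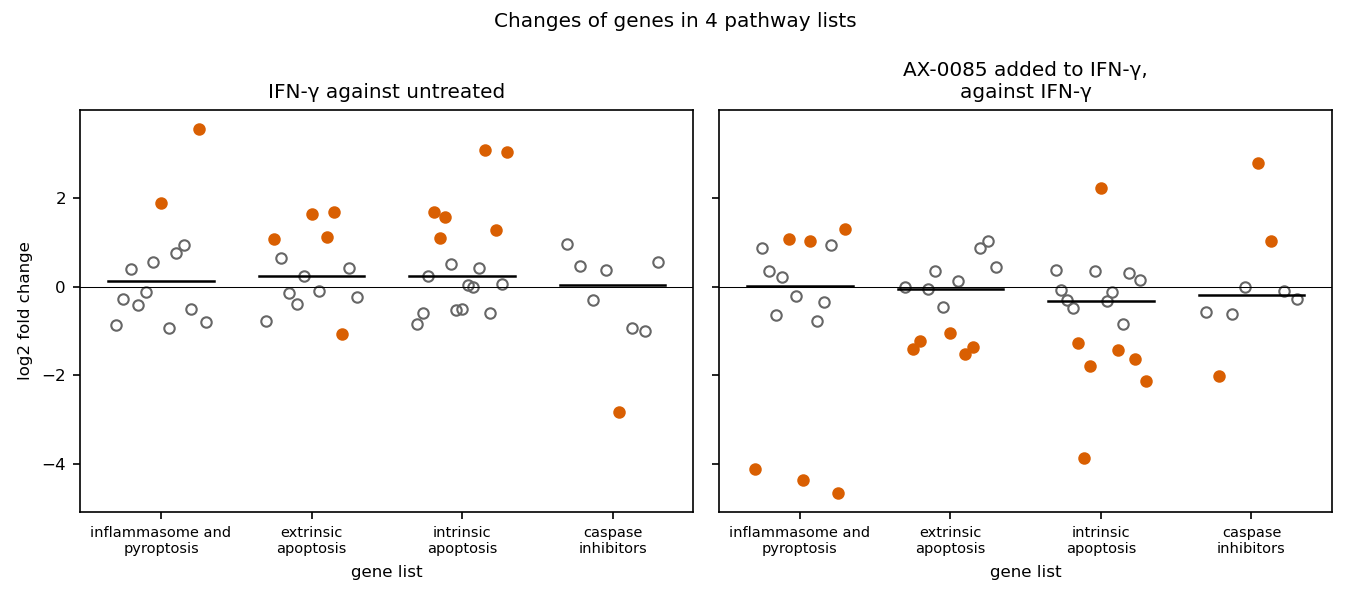
Log2 fold changes of the tested genes of the 4 pathway lists with IFN-γ and with AX-0085 added to IFN-γ, with 1 point per gene, filled where called, and a line at the list median. CARD16 is counted in the median but not drawn in the IFN-γ panel because it had 0 counts in untreated cells. With IFN-γ the list medians were 0.14, 0.24, 0.24 and 0.04 for inflammasome and pyroptosis, extrinsic apoptosis, intrinsic apoptosis and caspase inhibitors.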

How the data were processed

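RNA of 8 A549 libraries was sequenced as paired-end reads from a stranded mRNA kit. The authors trimmed with Trim Galore 0.6.7, mapped to GRCh38 with STAR 2.7.9a, counted per gene with featureCounts and deposited raw counts without normalization. The annotation release, strand setting and handling of reads with several positions are not given in the sources used here. All columns were used, and 60463 of 60664 identifiers matched GENCODE 44.

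Genes were filtered with filterByExpr, scaled by TMM and tested with edgeR 4.0.16 (R 4.3.3, quasi-likelihood) in 1 model of the 4 groups, with Benjamini-Hochberg adjustment over 15066 genes. Fold changes, standard errors and 95% intervals come from this model, and CPM uses TMM-scaled totals. The SD of the 2 libraries is replaced by both values. An exact permutation test of 2 against 2 libraries cannot go below p = 0.333. Counting intervals cover counting error only. The procedure was tested on simulated counts. DESeq2 1.42.0 was an alternative.

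The 8 genes, the lists and the rule for naming genes were chosen with earlier results of these data known. The rule named the 8 genes, other caspases, per pathway list the 3 largest called rises and falls with IFN-γ and with AX-0085 added, 8 fixed partners (APAF1, CFLAR, PYCARD, XIAP, IL18, IL1B, CARD16, CARD17), and the 3 genes most correlated with CASP1, CASP4, CASP8 and GSDMD, kept to genes averaging 2 or more on the log2 CPM scale. A few genes named by the rule are not reported here.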

Additional observations from a re-analysis of the deposited data

Results flagged for a closer look

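The IFN-γ effect differed between cells with and without AX-0085 by the interaction term of the edgeR model for 7 of the 8 genes, which is the same test as a difference of the AX-0085 effect with and without IFN-γ. Values are the effect with AX-0085 minus the effect without it, on the log2 scale. The difference was -3.94 for CASP1, -1.86 for CASP4 and -0.46 for CASP8, the genes that IFN-γ raised. For the genes that IFN-γ lowered it was 1.02 for CASP6, 0.94 for CASP2, 0.88 for CASP9 and 0.41 for CASP10. CASP9 was the only one of the 7 whose IFN-γ effect passed the test with opposite signs in the 2 settings, at -0.48 and 0.40. The CASP10 difference did not pass when any of 7 of the 8 libraries was left out, and the CASP1 difference did not pass without AX-0085 replicate 1.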

How the results depend on the processing

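Under the other scalings, filters and tests, no gene of the 8 that passed the test changed direction. Reversed values came from differences that did not pass. Leaving out 1 library at a time, GSDMD with IFN-γ ranged from -0.25 to 0.07 (without IFN-γ replicate 2). In the combined treatment against AX-0085, CASP4 ranged from -0.07 (without AX-0085 replicate 1) to 0.19 and CASP10 from -0.06 (without the combined replicate 1) to 0.08, and CASP10 was -0.01 with at least 10 counts in every library. By adjusted p alone, 10259, 10019, 8028, 5228, 8573 and 7577 genes passed and 7, 8, 4, 4, 6 and 7 of the 8, in the order IFN-γ, AX-0085 added to IFN-γ, AX-0085 alone, the combined treatment compared with AX-0085 and then with untreated cells, and the interaction. With at least 10 counts in every library, which removes CASP1, the called genes were 2403 with AX-0085 added, 1089 with AX-0085 alone, 245 with both against AX-0085 and 1385 with both against untreated, and the called genes of the 8 were 1, 0 and 1 in the last 3. The DESeq2 Wald test called 314 genes with both against AX-0085. Leaving out 1 library at a time, 0 to 1 of the 8 were called with AX-0085 alone, where CASP4 reached 1.12 without untreated replicate 1 and 1.11 without AX-0085 replicate 1. The other calls that 1 library decided are given with their comparisons above. The CASP6 interaction was short of the call by DESeq2 (0.98) and with RLE factors (0.99), and the CASP2 interaction reached it with scaling by library size alone (1.06) and without IFN-γ replicate 2 (1.02). Scaling by library size alone moved the median IFN-γ change of all genes from -0.06 to -0.18. Replicate numbers did not pair the samples, with correlations of deviations from -0.358 to 0.349. With the replicate number as a block 4098, 3693, 1780, 501, 2181 and 2738 genes were called, and with the untreated and combined numbers swapped, a choice made after seeing the data, 4146, 3744, 1833, 558, 2257 and 2857, with 4, 4, 0, 1, 2 and 3 of the 8 called under either. With the numbers swapped the GSDMD interaction passed (0.28, edgeR adjusted p = 0.03725), and no other test of the 8 changed side under either block. Fitting only the groups compared, GSDMD (0.16) and CASP6 (-0.23) passed with both against AX-0085 (edgeR adjusted p = 0.026 and 0.03438), as did GSDMD (0.19) without IFN-γ replicate 2 (0.03969), and the CASP10 interaction did not pass with no filter beyond 1 count (edgeR adjusted p = 0.05426). A fit of only the groups compared was not possible for the interaction. CASP1 rests on at most 5 counts per library without IFN-γ, which limits its values there.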

Other observations

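With AX-0085 alone, where none of the 8 genes was called, regulators of the mitochondrial pathway and caspase inhibitors were. The genes given here were chosen after their values were seen. BMF, a BH3-only gene, had 1.46 and 1.55 CPM in untreated libraries and 10.0 and 10.6 with AX-0085, a log2 rise of 2.78 ± 0.15 (edgeR adjusted p = 1.186e-08). HRK and BBC3 rose by 1.41 (edgeR adjusted p = 0.000184) and 1.35 (edgeR adjusted p = 1.855e-06). The anti-apoptotic BCL2A1 went from 8.37 and 10.6 CPM to 1.39 and 1.43 CPM, a log2 change of -2.73 ± 0.18 (edgeR adjusted p = 7.262e-08). BCL2L1 changed by -1.20 (edgeR adjusted p = 1.088e-08), with the limit from opposite-strand exons given above. These 5 were all that was called among the 17 tested genes of the intrinsic list, 3 higher and 2 lower, where 6.41% and 5.62% of all genes were called higher and lower.

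Among the caspase inhibitors, BIRC5, the gene of survivin, had 249.3 and 279.4 CPM in untreated libraries and 85.2 and 85.3 with AX-0085, a log2 change of -1.63 (edgeR adjusted p = 4.132e-09), and BIRC3 changed by -1.17 (edgeR adjusted p = 6.938e-07). The death ligand gene TNFSF10 rose by 1.79 ± 0.43 (edgeR adjusted p = 0.00326). This rests on low counts, 6 and 7 in untreated libraries and 19 and 24 with AX-0085, the latter 0.757 and 0.903 CPM.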
